A study of Mus musculus with 9 samples.

Results

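The C/EBP family was examined in bone marrow-derived dendritic cells (BMDCs), through the 5 genes Cebpa, Cebpb, Cebpd, Cebpe and Cebpg. They were found by gene name among the 57238 entries of the deposited count table, and all 5 passed the filter on low counts that left 15028 genes for testing. The BMDCs came from wildtype C57BL/6 mice, and in every group bone marrow cells had been differentiated for 6 days, per the labels, with 20 ng/ml of the growth factor GM-CSF. Control BMDCs (CTR) received no exosomes. NE-treated BMDCs (NE) received exosomes, small secreted vesicles, from non-cancerous NIH 3T3 cells, a fibroblast line of mouse origin, for 24 h, and TDE-treated BMDCs (TDE) received tumor cell-derived exosomes for 24 h. The labels do not name the tumor line. Each group had 3 libraries, and the labels do not state that these came from separate cultures or animals, so p-values measure only the spread between libraries, which may be technical.

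C/EBP proteins are transcription factors that bind DNA as dimers through a basic leucine zipper, and members can pair with each other and with related zipper proteins such as ATF4. C/EBP alpha commits progenitors to the granulocyte and monocyte lineages, C/EBP epsilon drives the last steps of granulocyte maturation and the genes of secondary granules, and C/EBP beta and C/EBP delta are induced by cytokines and microbial products and act on inflammatory genes. C/EBP gamma lacks a transactivation domain and modulates the others as a partner. Cebpb has a single mRNA that is translated into activating and inhibitory protein forms, which counts per gene cannot separate.

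Reads assigned to genes ranged from 17469782 to 21092943 per library. Values are given as CPM, a gene's reads scaled to a common library size by edgeR's TMM method, and a count of 3 reads, the upper limit that a count of 0 allows, equals 0.142 to 0.172 CPM. This floor covers counting error only. Control replicate 1 stood apart, with a mean correlation of 0.870 with the other CTR libraries, against a lowest value of 0.941 between any pair of the other 8 libraries. Many results are therefore also given without it, but not all. Ranges over the CTR libraries include it unless stated. Genes listed as dendritic cell markers, such as Itgax, Zbtb46 and Cd74, were detected in every library, and Cd209a was at 0 in the TDE libraries. Genes of macrophages, neutrophils and eosinophils were present as well. In these bulk libraries, fewer cells of a type and less RNA per cell cannot be told apart.

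All 5 genes are protein-coding. In the mouse build GRCm38, Cebpb is a gene of 1 exon at chr2:167688915-167690418 on the plus strand, and Cebpa lies at chr7:35119293-35121928 on the plus strand. Cebpg lies at chr7:35046422-35056573 on the minus strand, with 62719 bases between it and Cebpa. Cebpd lies at chr16:15887286-15891031 on the plus strand, and Cebpe, with 2 exons, at chr14:54710360-54712174 on the minus strand. The sources do not say whether reads were counted by strand. Exons of 2 members overlap those of an expressed gene on the opposite strand, Cebpb with Tmem189 over 312 bases and Cebpd with Spidr over 562 bases. For both neighbours the TDE libraries lay above all others, Tmem189 at 277 to 294 CPM against 144 to 197 CPM in the CTR and NE libraries and Spidr at 38.2 to 41.4 CPM against 8.43 to 20.8 CPM. Without strand, reads from the shared bases cannot be told apart between a gene and its neighbour.

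Promoters of 300 bases, from 250 bases before to 50 after the start site, were found in RefSeq for 3 of the 5 members (build GRCm38.p6), and those of Cebpb and Cebpa are shown because the levels of these 2 genes are set against each other further on. Capitals mark the CRE half-site TGACG, read as CGTCA on the other strand, and the TATA box TATAAA. The Cebpb promoter is chr2:167688665-167688964 and that of Cebpa is chr7:35119043-35119342, both on the plus strand.
Cebpb: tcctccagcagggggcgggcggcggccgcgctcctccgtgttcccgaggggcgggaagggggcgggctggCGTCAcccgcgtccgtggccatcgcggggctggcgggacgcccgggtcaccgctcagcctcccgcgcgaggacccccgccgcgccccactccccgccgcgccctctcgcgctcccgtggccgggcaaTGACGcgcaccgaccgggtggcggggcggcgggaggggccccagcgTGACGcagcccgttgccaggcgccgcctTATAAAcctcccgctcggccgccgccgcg
Cebpa: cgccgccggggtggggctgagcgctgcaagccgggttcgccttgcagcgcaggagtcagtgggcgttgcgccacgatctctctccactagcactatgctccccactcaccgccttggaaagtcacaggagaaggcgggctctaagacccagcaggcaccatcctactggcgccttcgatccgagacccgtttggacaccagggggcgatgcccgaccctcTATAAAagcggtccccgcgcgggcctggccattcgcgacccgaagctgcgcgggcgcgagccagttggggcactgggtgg
The Cebpb window is 80.7% G and C, against a median of 52.7% over 32851 mouse promoters. It holds TGACG 3 times, starting 180, 53 and 7 bases before the start site, the first on the minus strand, and 20.8% of all promoters hold this motif. It also holds GC boxes (GGGCGG) at 5 places, 2 of which overlap, a motif found in 35.7% of promoters, and a TATAAA that starts 21 bases after the annotated start site. The Cebpa window is 67.3% G and C and holds TATAAA 30 bases before the start site, a motif found in 13.6% of promoters, and none of the other motifs searched. The Cebpg window is 71.7% G and C, with CCAAT at 2 places (37.4% of promoters) and 1 GC box. None of the 3 windows holds the C/EBP palindrome TTGCGCAA, found in 0.183% of promoters, or the spaced STAT motif TTCNNNGAA, found in 8.3%. All motifs were searched on both strands, and a match in the sequence is not a measured binding site.

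All 5 genes were expressed in all 9 libraries, and their shares of the family's transcripts were not alike in the groups. On a per-length scale (CPM per kilobase of listed gene length), Cebpb made up 36.3% and 32.5% of the family's summed level in control replicates 2 and 3 and 50.7% in replicate 1, 21.7% to 29.2% in the NE libraries and 56.7% to 61.4% in the TDE libraries. Cebpa made up 14.2%, 32.4% and 34.2% in CTR, 30.8% to 37.4% in NE and 16.9% to 17.8% in TDE libraries. Cebpe made up 12.8% to 20.8% in CTR, 15.1% to 18.2% in NE and 3.37% to 3.66% in TDE libraries. On the same scale the sum of the 5 genes was 333, 184 and 153 in CTR, 124, 113 and 165 in NE and 151, 162 and 171 in TDE libraries. The summed levels of CTR and TDE overlapped, as did those of NE and TDE, while the shares of Cebpb and Cebpe in the TDE libraries did not overlap those of the other 6 libraries. These shares were not tested.

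**Figure D1:**
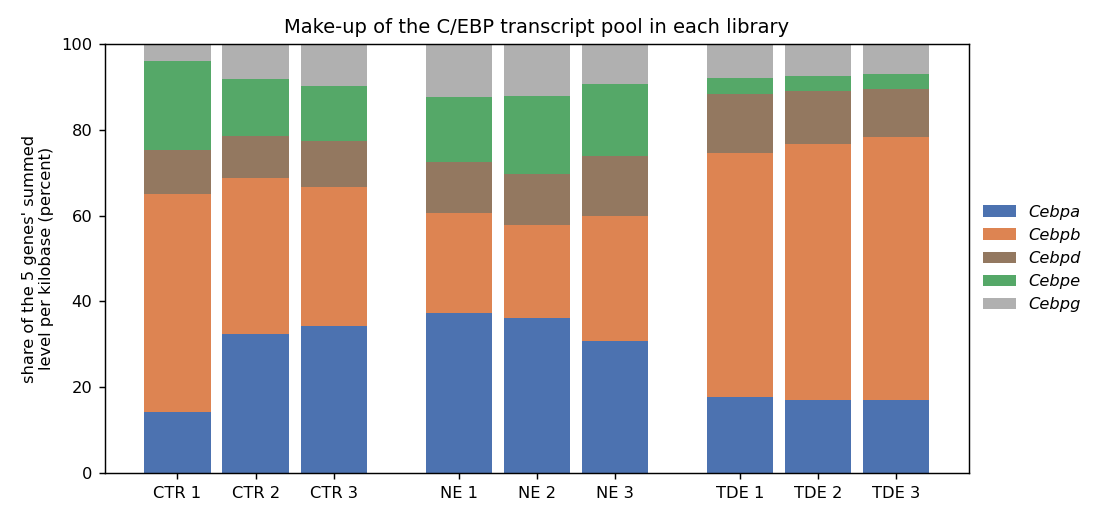
Stacked bars give the share (percent) of each C/EBP gene in the summed level per kilobase of the 5 genes, with 1 bar per library. Cebpb takes 56.7% to 61.4% of the bar in TDE libraries, and Cebpe shrinks there to 3.37% to 3.66%.

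Cebpa was lower in TDE-treated BMDCs than in both other groups. Its levels were 124.5, 156.4 and 137.4 CPM in CTR, 121.5, 107.3 and 133.7 CPM in NE and 70.6, 72.4 and 76.1 CPM in TDE libraries. Every TDE library lay below every other library, and CTR and NE overlapped. The mean of 73.0 ± 2.83 CPM in TDE (SD, n = 3) was 1.91-fold lower than the 139.5 ± 16.0 CPM of CTR, a log2 difference of -0.93 (SE 0.140, adjusted p = 0.00385, edgeR's quasi-likelihood test). Against NE (120.8 ± 13.2 CPM) it was 1.65-fold lower, a log2 difference of -0.73 (SE 0.139, adjusted p = 0.0109). The first of these calls held whichever library was left out. The second was lost without TDE replicate 1, 2 or 3 (adjusted p = 0.0669, 0.0612 and 0.0536), at log2 differences of -0.70, -0.72 and -0.75.

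Cebpe, the factor of terminal granulocyte maturation, had the largest difference of the 5 genes. It was at 85.9, 30.7 and 24.4 CPM in CTR, 23.1, 25.5 and 34.3 CPM in NE and 6.87, 6.82 and 7.16 CPM in TDE libraries. The TDE libraries lay close together and below all others, and control replicate 1 was far above the rest. Cebpe was 6.75-fold lower in TDE than in CTR, a log2 difference of -2.75 (SE 0.462, adjusted p = 0.00607). Leaving out control replicate 1 gave -1.995 (adjusted p = 4.5e-05). Against NE, TDE was 3.97-fold lower (log2 difference -1.99, SE 0.451, adjusted p = 0.0215), a call that was lost when any single NE or TDE library was left out, at log2 differences of -1.80 to -2.10 and adjusted p of 0.0513 to 0.0879.

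Cebpb, an inflammation-induced member, was higher in every TDE library than in every NE library, and none of its comparisons passed the test over all 9 libraries. It was at 253.8, 100.4 and 74.8 CPM in CTR, 43.0, 36.9 and 72.5 CPM in NE and 129.0, 145.4 and 158.0 CPM in TDE libraries. The TDE libraries also exceeded control replicates 2 and 3, and control replicate 1 exceeded them all. The means were 144.1 ± 14.6 CPM in TDE and 143.0 ± 96.8 CPM in CTR, with a log2 difference of 0.01 (95% interval -1.01 to 1.03, adjusted p = 0.986). With that library left out the difference was 0.71 (interval 0.12 to 1.30, adjusted p = 0.0649). Against NE (50.8 ± 19.0 CPM), Cebpb was 2.84-fold higher in TDE, a log2 difference of 1.50 (SE 0.456, interval 0.46 to 2.55), which did not pass the test (adjusted p = 0.0650). This difference passed without control replicate 1 (1.50, adjusted p = 0.00101) or without control replicate 3 (1.50, adjusted p = 0.0368). Neither library belongs to the 2 groups compared, and both enter the fit shared by all groups.

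Cebpb was also the member with the widest gap between NE and CTR. The NE libraries lay below all CTR libraries, with NE replicate 3 (72.5 CPM) just under control replicate 3 (74.8 CPM). The log2 difference was -1.49 (SE 0.456, unadjusted p = 0.0107, adjusted p = 0.659), and -0.79 without control replicate 1.

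The balance of Cebpb to Cebpa, as the ratio of their levels per kilobase within a library, was 3.19, 3.50 and 3.63 in TDE and 0.619, 0.600 and 0.947 in NE libraries. In CTR it was 3.56, 1.12 and 0.950. Against NE the ratio was 4.87-fold higher in TDE, a log2 difference of 2.28 with no overlap (two-sided exact permutation p = 0.1, the smallest that 3 libraries against 3 can give). Against CTR the difference was 1.14 on the log2 scale, and the groups overlapped through control replicate 1 (exact permutation p = 0.3). Without that library it was 1.73, with no overlap and an exact permutation p = 0.1, again the smallest possible. NE against CTR gave a log2 difference of -1.14 (exact permutation p = 0.1), and of -0.55 without control replicate 1 (exact permutation p = 0.2).

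Cebpd, the acute-phase partner of Cebpb in many tissues, showed no difference between the groups that passed the test. It was at 127.8, 68.0 and 61.4 CPM in CTR, 55.5, 50.5 and 86.2 CPM in NE and 78.6, 75.9 and 71.7 CPM in TDE libraries. The 3 groups overlapped, and control replicate 1 was again the highest library. TDE differed from CTR by -0.19 on the log2 scale (95% interval -0.89 to 0.52, adjusted p = 0.678) and, without control replicate 1, by 0.21 (adjusted p = 0.452). TDE differed from NE by 0.23 (interval -0.47 to 0.94, adjusted p = 0.734).

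Cebpg, the partner that lacks a transactivation domain, varied least of the 5 genes. Its levels were 63.4, 69.8 and 71.3 CPM in CTR, 72.7, 64.2 and 73.5 CPM in NE and 57.0, 57.2 and 57.3 CPM in TDE libraries. The TDE libraries lay below all others by a small amount. The log2 difference was -0.25 against CTR (SE 0.115, adjusted p = 0.1525) and -0.30 against NE (SE 0.115, adjusted p = 0.139), and neither passed the test. Both did without control replicate 1, at -0.31 (adjusted p = 0.0155) and -0.30 (adjusted p = 0.00943).

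**Figure D2:**
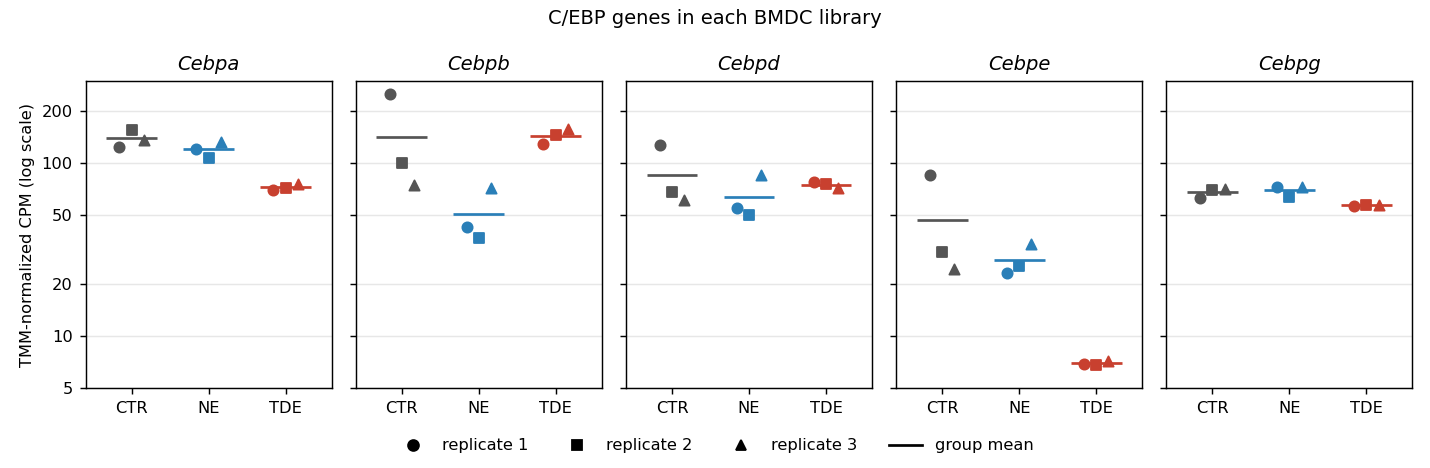
Each point is the TMM-normalized CPM (log axis) of a C/EBP gene in 1 library of CTR, NE or TDE BMDCs, with symbols for replicates 1 to 3 and lines at the group means. The TDE points of Cebpa (70.6 to 76.1 CPM) and Cebpe (6.82 to 7.16 CPM) lie below all others, and control replicate 1 is the highest point of Cebpb, Cebpd and Cebpe.

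In all, 2 of the 5 genes, Cebpa and Cebpe, passed the test as lower and none as higher in TDE against CTR, where 16.9% of all tested genes passed (7.57% higher and 9.34% lower). The same counts were found in TDE against NE, where 13.9% passed (6.73% higher and 7.21% lower). These comparisons share the TDE libraries. In NE against CTR, 0.0% of genes passed with edgeR, 487 genes had an unadjusted p under 0.05, and DESeq2 called 3 genes and limma voom with quality weights 18. No member passed there with edgeR. The log2 differences of Cebpa, Cebpd, Cebpe and Cebpg in NE against CTR were -0.21, -0.42, -0.76 and 0.04. With control replicate 1 left out they were -0.28, -0.02, 0.0030 and -0.01, so the differences of Cebpd and Cebpe rested on that library.

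Groups did not overlap for 3 members in TDE against CTR (Cebpa, Cebpe and Cebpg), beside 44.0% of all tested genes. In TDE against NE they were 4 (Cebpa, Cebpb, Cebpe and Cebpg), beside 54.5%, and in NE against CTR only Cebpb, beside 7.71%. More genes passed without control replicate 1, 34.4% in TDE against CTR, 40.7% in TDE against NE and 0.0196% in NE against CTR. There, 3 members were lower and none higher in TDE against CTR. In TDE against NE, 3 were lower and 1, Cebpb, was higher.

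**Figure D3:**
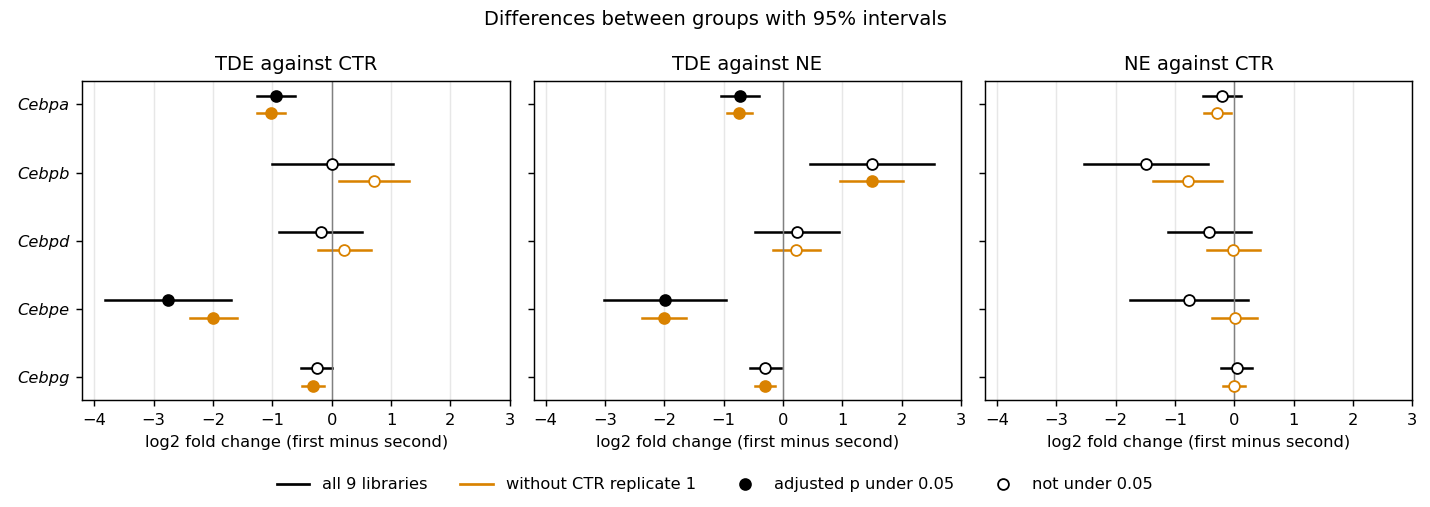
Log2 fold changes of the 5 C/EBP genes (first group minus second) with 95% intervals, in black from all 9 libraries and in orange without control replicate 1, with filled points for an adjusted p under 0.05. Cebpa and Cebpe are filled in both comparisons of TDE, Cebpb against NE is at 1.50 in both fits and filled only without control replicate 1, and no point is filled in NE against CTR.

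Partners and modifiers of C/EBP proteins were counted next, as a list of 18 genes of which 17 were tested. The counts of this and the later lists stand beside 16.9% of all tested genes in TDE against CTR and 13.9% in TDE against NE. Without control replicate 1 these shares were 34.4% and 40.7%. In TDE against CTR, 4 rose, 1 fell and 12 did not pass, with a median log2 difference of 0.20 beside -0.05 over all tested genes (-0.02 in TDE against NE). The genes that rose were Nfil3 (0.98) and Dbp (0.97), which encode related zipper factors, Rb1 (1.02), whose product binds C/EBP proteins, and Cop1 (0.48), a ubiquitin ligase that acts on C/EBP alpha. Nfil3 was at 55.1 to 74.4 CPM in CTR and 125 to 133 CPM in TDE libraries and kept its call whichever library was left out, while Rb1, Dbp and Cop1 lost it in 7, 8 and 3 of 9 such fits. Hlf, at most 1.53 CPM in any library, fell by 1.47 on the log2 scale. Against NE the counts were 3 higher and 1 lower. They were, without control replicate 1, 7 higher and 1 lower against CTR and 7 higher and 2 lower against NE.

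Ddit3 encodes CHOP, a family member by sequence that blocks binding of its partners and is induced by stress. It was at 77.4 CPM in control replicate 1 and at 10.1 to 15.2 CPM in the other 8 libraries. Its log2 difference in TDE against CTR was -1.25 (adjusted p = 0.220) and 0.24 without that library. Spi1, which encodes the myeloid partner PU.1, showed a like pattern, with 548 CPM in control replicate 1 and 287 to 365 CPM elsewhere. Trib1, which promotes the degradation of C/EBP alpha, was at 19.5 to 24.3 CPM in all 9 libraries.

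Of 20 genes of signals upstream of Cebpb and Cebpd, 3 rose and 2 fell in TDE against CTR, and the same numbers passed in TDE against NE. Over all tested genes 16.9% and 13.9% passed. Socs3, a feedback inhibitor of JAK-STAT signaling, rose most, from 18.5, 22.9 and 21.5 CPM in CTR to 385, 379 and 371 CPM in TDE libraries, with 17.7 to 21.7 CPM in NE (log2 difference 4.17 against CTR, adjusted p = 1.77e-05). Stat5a (0.85) and Il4ra (0.62) also rose, and Crem (-0.94) and Csf2ra (-0.68), which encodes the alpha chain of the GM-CSF receptor, fell. The calls of Il4ra and Csf2ra were lost in 6 and 8 of 9 fits that left out a library. The other 15 genes did not pass. The list's median was 0.22 in TDE against CTR and 0.11 in TDE against NE. It was also 0.22 in NE against CTR, so it was not particular to TDE. With control replicate 1 left out, 6 genes were higher and 4 lower in TDE against CTR.

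Inflammatory genes listed for their C/EBP beta or delta sites were mostly higher in TDE-treated BMDCs. Of 24 listed genes, 22 were tested, 17 rose and none fell in TDE against CTR, with a median log2 difference of 1.78. Against NE 19 rose and none fell, with a median of 2.18. Nos2, the inducible nitric oxide synthase, was at 0.190, 1.53 and 1.56 CPM in CTR and at 366, 345 and 374 CPM in TDE libraries (log2 difference 8.32, adjusted p = 0.000337). Its value in control replicate 1 was 3 reads, which is at the floor. Ptgs2, the inducible cyclooxygenase, was at 1.14 to 1.81 CPM in CTR and 62.8 to 106 CPM in TDE libraries (5.89). Saa3, an acute-phase protein gene, was at 1354, 223 and 183 CPM in CTR and 9116 to 9613 CPM in TDE libraries. Marco, a scavenger receptor gene, rose by 3.49 (4.35 without control replicate 1). Il6 went from 1.20 to 3.43 CPM in CTR to 10.8 to 12.1 CPM in TDE libraries (2.26, adjusted p = 0.00422). Without control replicate 1, 20 genes of the list were higher and none lower in both comparisons.

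Among 20 myeloid differentiation genes under C/EBP alpha, 1 rose and 7 fell in TDE against CTR, 1 rose and 5 fell in TDE against NE, and the medians were -0.35 and -0.38. Elane (-2.18), Mpo (-2.05) and Prtn3 (-1.94), which encode primary granule proteins of granulocyte precursors, had the lowest values over all 9 libraries. This order rested on control replicate 1. Without it the lowest was Myb, a progenitor transcription factor gene, at -1.87 (-1.67 with it). Mpo was at 160, 87.1 and 73.8 CPM in CTR, 83.5 to 88.7 CPM in NE and 24.4 to 27.4 CPM in TDE libraries, and kept its call whichever library was left out. Elane and Prtn3 lost theirs in 3 and 6 of 9 such fits. Without control replicate 1 the differences of Elane, Mpo and Prtn3 were -1.34, -1.65 and -0.86. Id2, which encodes an inhibitor of helix-loop-helix factors, rose (0.81). Csf3r, the G-CSF receptor gene and a classic target of C/EBP alpha, was at 180 to 194 CPM in CTR and 222 to 229 CPM in TDE libraries, a log2 difference of 0.27 that did not pass (adjusted p = 0.121). It passed with control replicate 1 left out, at 0.24 against CTR (adjusted p = 0.0283) and 0.22 against NE (adjusted p = 0.0205). Without control replicate 1, 4 genes of the list were higher and 10 lower in TDE against CTR.

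Most secondary granule genes under C/EBP epsilon were lower in TDE-treated BMDCs. Of 16 genes, 10 fell and 1 rose in TDE against CTR, and 10 fell and 1 rose in TDE against NE, with medians of -1.12 and -1.09. Retnlg was at 813, 174 and 124 CPM in CTR, 126 to 177 CPM in NE and 12.1, 14.4 and 11.6 CPM in TDE libraries (log2 difference against CTR -4.87, adjusted p = 0.00381, and -3.57 without control replicate 1). Camp, which encodes cathelicidin, was at 178 to 1203 CPM in CTR and 20.0 to 22.4 CPM in TDE libraries (-4.71, and -3.37 without control replicate 1). Ltf, the lactoferrin gene, fell from 1451 to 2923 CPM in CTR to 234 to 265 CPM in TDE libraries (-3.06, and -2.72 without control replicate 1). The gene that rose against CTR was Cybb (0.74), a subunit of the phagocyte oxidase that is not limited to granulocytes, and its call was lost in 6 of 9 fits that left out a library. Lcn2, also an acute-phase gene, was the gene that rose against NE (1.53). Without control replicate 1, 3 genes of the list were higher and 12 lower in both comparisons.

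**Figure D4:**
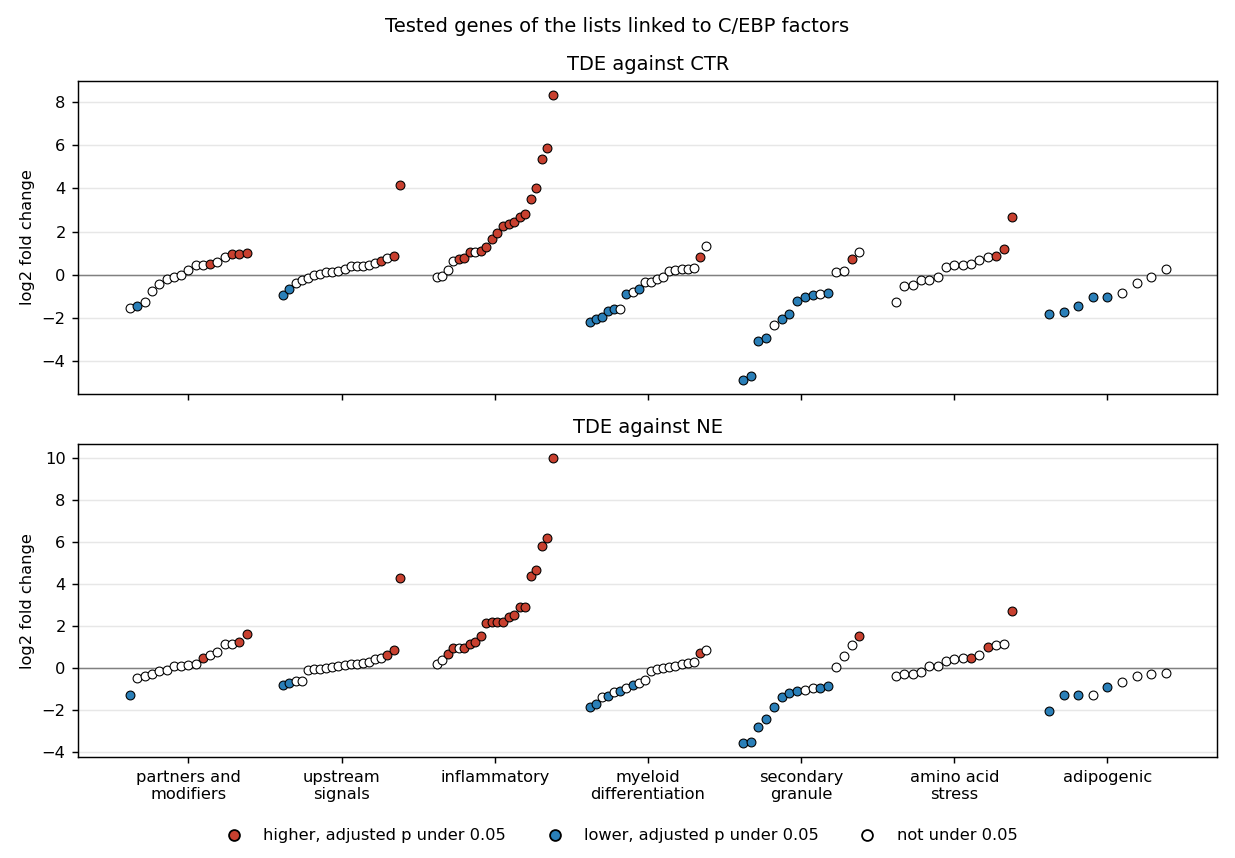
Log2 fold changes of the tested genes of 7 lists linked to C/EBP factors, in TDE against CTR above and TDE against NE below, with 1 point per gene ordered by value and coloured where the adjusted p was under 0.05. The inflammatory list has only higher calls, with medians of 1.78 and 2.18, and the secondary granule list has 10 lower calls in each panel.

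Most markers of granulocytes moved with Cebpe and with these granule genes. The summed level of 12 neutrophil markers was 29320 CPM in control replicate 1, 7673 and 10020 CPM in the other CTR libraries, 8080 to 11380 CPM in NE and 3685 to 3982 CPM in TDE libraries. Of these markers 8 were lower in TDE against CTR, 6 in TDE against NE and none higher, and 10 of the 12 are also on the lists of differentiation and granule genes above. Mmp8 (0.17 against CTR and 0.04 against NE), Cxcr2 (-0.09 and -0.40), Csf3r (0.27 and 0.23) and S100a8 (-2.315 and -1.06) passed in neither comparison. S100a9 and S100a8 were the largest parts of the sum in control replicate 1 (13250 and 8026 CPM). S100a9 passed against CTR (-2.05) and not against NE (-0.97). Without control replicate 1 both genes passed as lower, S100a9 at -0.91 against CTR and -0.97 against NE, and S100a8 at -0.94 and -1.07. The 6 eosinophil markers summed to 576 to 1596 CPM in CTR, 593 to 673 CPM in NE and 108 to 135 CPM in TDE libraries, and all 6 were lower in TDE in both comparisons. No marker of either type was at 0 in every library. The 12 dendritic cell markers summed to 4147 to 12800 CPM in CTR and 2141 to 2266 CPM in TDE libraries, with 4 lower, and the 10 macrophage markers to 4187 to 4597 CPM and 5277 to 5653 CPM, with 1 higher and 2 lower. The 6 markers of mast cells and basophils summed to 117 to 250 CPM in CTR and 28.2 to 31.0 CPM in TDE libraries. Of these, 5 were lower against CTR and 6 against NE, so lower markers were not particular to neutrophils and eosinophils. Markers of lymphocytes, fibroblasts and epithelial cells summed to at most 39.3, 10.8 and 12.7 CPM in any library. All 4 tested lymphocyte markers were lower against CTR and 1 against NE. Of the fibroblast markers 2 were higher against CTR and 1 against NE, and 1 epithelial marker was lower in both comparisons. The part of a change in cell types in the levels of Cebpe and Cebpa was not tested.

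**Figure D5:**
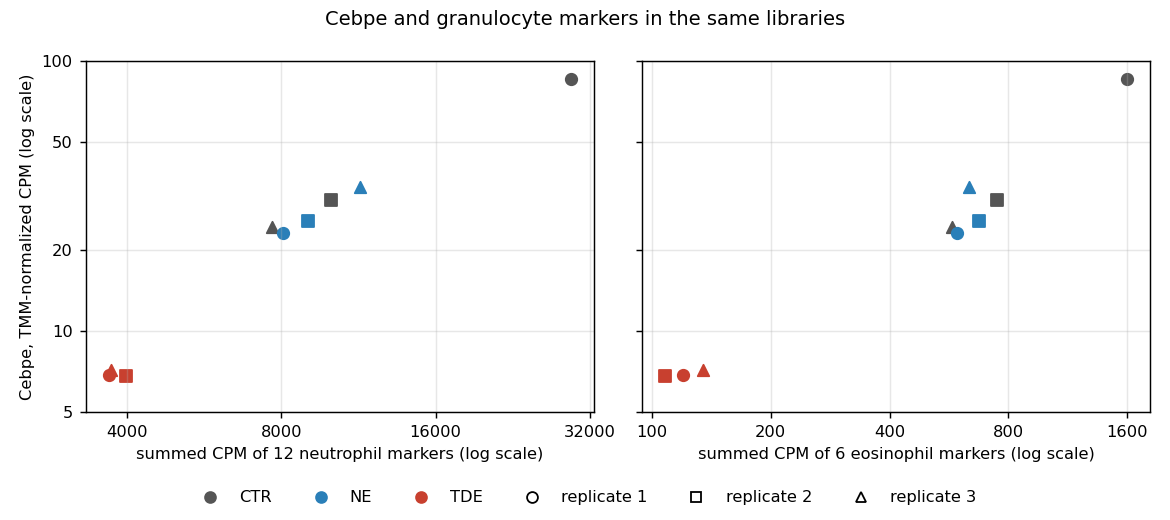
Cebpe (TMM-normalized CPM) against the summed CPM of 12 neutrophil markers (left) and 6 eosinophil markers (right) in the 9 libraries, all axes on a log scale. The TDE libraries sit at the lower left of both panels, with Cebpe at 6.82 to 7.16 CPM and neutrophil markers at 3685 to 3982 CPM, and control replicate 1 is at the upper right.

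Amino acid stress genes, on which C/EBP gamma acts with ATF4, numbered 15, of which 3 rose, none fell and 12 did not pass in each comparison of TDE. Over all tested genes 16.9% passed against CTR and 13.9% against NE, so the counts of both directions together were near the background. By direction, 7.57% of all tested genes were higher and 9.34% lower against CTR, and 6.73% and 7.21% against NE. All calls of the list were higher. The list's median log2 difference was 0.46 against CTR and 0.43 against NE. Ddit4 was at 9.51 to 14.9 CPM in CTR and 75.0 to 85.4 CPM in TDE libraries (log2 difference 2.69, adjusted p = 0.000103), Atf3 rose by 1.18 and Slc7a11 by 0.85, a call lost in 7 of 9 fits that left out a library. Against NE, Sesn2 (0.49) passed in place of Slc7a11. With control replicate 1 left out, 7 genes were higher and none lower against CTR, and 6 were higher and 1 lower against NE. Of all tested genes, 34.4% and 40.7% passed in these fits.

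Of 12 adipogenic genes shared by C/EBP alpha and PPAR gamma, 9 were tested, and 5 fell in TDE against CTR and 4 in TDE against NE, with medians of -1.02 and -0.90 and none higher. Pparg was at 13.1 to 15.3 CPM in CTR, 16.0 to 18.4 CPM in NE and 3.38 to 4.32 CPM in TDE libraries (log2 difference against CTR -1.81, adjusted p = 0.000337). Fabp4, a fatty acid binding protein gene, fell by 1.71 and Lpl, which encodes lipoprotein lipase, by 1.47 on the log2 scale. Lpl was at -1.10 without control replicate 1. Fabp4 lost its call in 3 of 9 fits that left out a library and was at -1.06 without control replicate 1. The counts were 6 against CTR and 9 against NE without control replicate 1. In NE against CTR no gene of any of the 7 lists passed the test with edgeR over all 9 libraries. Without control replicate 1 the inflammatory gene Arg1 was lower in NE (log2 difference -1.145, adjusted p = 0.000446). It was at 209 to 216 CPM in NE and at 479 and 462 CPM in control replicates 2 and 3. Control replicate 1, left out of that fit, was at 258 CPM.

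The genes whose log2 CPM followed each member most closely over the 9 libraries were found among 10331 genes, as a description that also takes in differences between groups and control replicate 1. For Cebpa they were Cited2, Arrdc4 and Pdgfb (Pearson r of 0.986, 0.975 and 0.971), and for Cebpb Rnf181, Mib2 and 2510039O18Rik (0.972, 0.972 and 0.969). For Cebpd they were Bag3, Gmnn and Pafah1b3 (0.989, 0.986 and 0.978), and for Cebpg Pigh, Arl4c and Meaf6 (0.975, 0.965 and 0.964). For Cebpe, Arl11, Igha and Lsp1 each reached 0.999. Lsp1, a leukocyte actin-binding protein gene, was at 1501 CPM in control replicate 1, 576 to 753 CPM in the other CTR and NE libraries and 239 to 261 CPM in TDE libraries.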

How the data were processed

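RNA of 9 BMDC libraries, 3 each of CTR, NE and TDE, was analysed from the deposited gene count table. Per the study's methods and the submitters' processing notes, reads were aligned with TopHat2 2.1.1. The counting program, genome build and annotation are not given in the sources used here. The authors deposited one estimated count per gene and library, made from the aligned reads, mostly whole and without normalization, with group means and gene lengths. The means were not used in any test.

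Estimated counts were rounded and filtered with edgeR's filterByExpr (15028 genes kept). They were normalized by TMM and fitted in edgeR 4.0.16 (R 4.3.3) with 1 mean per group and all 9 libraries. Pairs of groups were compared with the two-sided quasi-likelihood F test, with Benjamini-Hochberg adjustment over all tested genes and a threshold of 0.05. The SE of a log2 fold change was computed from its size and F. Levels per kilobase used the listed gene lengths, and the Cebpb to Cebpa ratio was tested by exact permutation. Positions came from GENCODE vM21 and promoters from RefSeq, both on GRCm38. The code was tested on simulated counts. Tables and plots used Python 3.11.15, numpy 2.4.6, pandas 2.3.3 and matplotlib 3.10.9.

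The members, gene lists and marker lists (dendritic cell, macrophage, neutrophil, eosinophil, mast cell and basophil, lymphocyte, fibroblast, epithelial cell) were chosen with earlier results of these data known. The genes named were the 5 members, Ddit3, Trib1, Spi1, Csf3r, Il6, Pparg, and from each list up to 4 genes with the highest and 3 with the lowest log2 fold change in TDE against CTR, given an adjusted p under 0.05 and a mean of at least 5 CPM. For each member, the 3 genes with the highest Pearson correlation were also named. Hlf, Lcn2, Sesn2, Myb, Arg1, Tmem189, Spidr, the motifs and the marker genes named singly were chosen after their values were seen. Alternatives were median-ratio factors, library totals, no filter, a minimum of 10 counts in every library, the 6 libraries of a pair, a replicate block, DESeq2 1.42.0, voom with quality weights (limma 3.58.1) and leaving out each library.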

Additional observations from a re-analysis of the deposited data

How the results depend on the processing

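The lower level of Cebpa and of Cebpe in TDE against CTR passed under all 17 alternatives, with log2 differences of -1.06 to -0.84 for Cebpa and -3.06 to -1.995 for Cebpe. Other calls depended on the setting, and the cause was not tested. The voom fit gave control replicate 1 a quality weight of 0.027, against 0.28 to 2.87 for the other libraries. That library therefore counted for little in the voom results. The number of genes called in TDE against CTR (2541) was 1152 with the 6 libraries of the pair, 7886 with voom and 1103 to 5263 with a library left out. In TDE against NE (2095) it was 6072, 8311 and 970 to 6223. In NE against CTR (0) DESeq2 gave 3, voom 18 and leaving out a library 0 to 3.

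In TDE against CTR, Cebpb changed sign with the 6 libraries of the pair (-0.016), passed with voom (0.59) and ranged from -0.29 to 0.71 with a library left out. Cebpd was at 0.16 with voom (range -0.37 to 0.21), Cebpg passed with voom at -0.29 (-0.31 to -0.22), and Ddit3 and Spi1 changed sign with voom (0.12 and 0.073, ranges -1.67 to 0.24 and -0.36 to 0.13). In TDE against NE, Cebpa did not pass with library totals (-0.79, range -0.80 to -0.64). Cebpb passed with library totals (1.45), the 6 libraries of the pair (1.50), DESeq2 (1.53) and voom (1.81), with a range of 1.32 to 1.86. With voom Cebpd (0.47) and Cebpg (-0.26) passed, and Cebpg also with the 6 libraries (-0.29, range -0.35 to -0.25). Cebpe ranged from -2.10 to -1.80. In NE against CTR voom gave -1.22 for Cebpb, which passed, and -0.034 for Cebpg (range -0.0106 to 0.104), and Cebpe ranged from -1.07 to 0.0030. Library totals moved the median log2 difference of all genes in NE against CTR to 0.124.

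Groups share replicate numbers, but the labels state no pairing, and deviations of same-numbered libraries correlated at -0.585 to 0.185 across genes. With a replicate block, 1285 genes were called in TDE against CTR and 1175 in TDE against NE, and Cebpe in TDE against NE was at -2.01 and did not pass (adjusted p = 0.0513). The replicate block changed no other call of a member. With 3 libraries a group, differences as small as that of Cebpg passed or missed the threshold depending on the setting.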
